A study of Mus musculus with 62 samples.

Results

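The striatum and the prefrontal cortex of mice that had received vehicle alone were compared by RNA sequencing of tissue punches. The comparison used 4 striatum and 4 prefrontal cortex libraries, 8 of the 62 samples of a series in which female C57BL/6 mice swallowed a mixture of polychlorinated biphenyls (the MARBLES mixture) at 0.1, 1 or 6 mg/kg, or vehicle. All 8 samples came from female C57BL/6 mice on vehicle; no transgene or other treatment is named for them, and their age is not given in the sources used here. The members were taken as the samples labelled vehicle in each brain region. The titles carry the numbers 3, 4, 7 and 8 in each region, and libraries are called here by them, as animal 3 and so on; the labels do not state that a number marks the same mouse in both regions. Another 34 brain libraries, 17 of each region, came from the dosed mice and served as a second set that shared no library with the vehicle comparison.

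As background, the striatum is the input station of the basal ganglia. Nearly all of its neurons are GABAergic projection neurons of the direct pathway, marked by the dopamine receptor gene Drd1, or of the indirect pathway, marked by Drd2 and Adora2a, with sparse cholinergic interneurons among them. The prefrontal cortex is layered, and most of its neurons are glutamatergic pyramidal cells marked by Slc17a7, with GABAergic interneurons among these. Cortical glutamatergic neurons come from the Emx1-positive dorsal telencephalon, and striatal neurons from ventral progenitors that express Dlx genes.

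Library totals were 10147296 to 10459212 counts in striatum and 8874514 to 11672016 in cortex. Levels are given in CPM, a gene's count rescaled for sequencing depth (with TMM factors) so that libraries can be set side by side, and fold changes as log2 of striatum over cortex, so that a positive value is higher in striatum. Of 17378 genes listed for both regions, 14514 had enough counts to be tested. A gene is said to pass when its adjusted p was under 0.05 by edgeR's quasi-likelihood test with Benjamini-Hochberg adjustment over all 14514 genes. To pass beyond 2-fold, it had to do so against the null of a change of up to 2-fold. All 8 libraries are separate samples, but nothing states how many punches or mice each one holds.

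The 2 regions differed in 3229 genes, 22.2% of those tested, with 1600 (11%) higher and 1629 (11.2%) lower in striatum. The counts given below for lists of genes are to be read against these shares of all genes. The median absolute log2 fold change of the passing genes was 0.63. Beyond 2-fold, 131 genes passed (0.903%), of which 95 (0.655%) were higher and 36 (0.248%) lower in striatum. In all 131 the 4 striatum libraries did not overlap the 4 cortex libraries, as in 3544 genes (24.4%) overall. Scaled by library totals alone, 3407 genes passed and 64.66% of them were higher in striatum, against 49.55% with TMM scaling. Without the striatum library of animal 8, 267 genes passed beyond 2-fold and the split turned over, with 113 higher (42.32%, against 72.52% with all libraries) and 154 lower in striatum. The count was 84, 76 and 81 without the cortex library of animal 3, 4 or 7. Region could not be told apart from any difference in the handling of the regions, because the labels give no batch that crosses them.

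The libraries of animal 8 stood nearest to the opposite region. Measured as the root mean square difference in log2 CPM over the tested genes, the distance between regions ranged from 0.499, between the 2 libraries numbered 8, to 0.773, between the striatum of animal 4 and the cortex of animal 3. Within the striatum the distances ran from 0.37 to 0.505, and within the cortex from 0.355 to 0.43. The distance between the 2 libraries numbered 8 was thus smaller than the largest distance within the striatum.

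**Figure D1:**
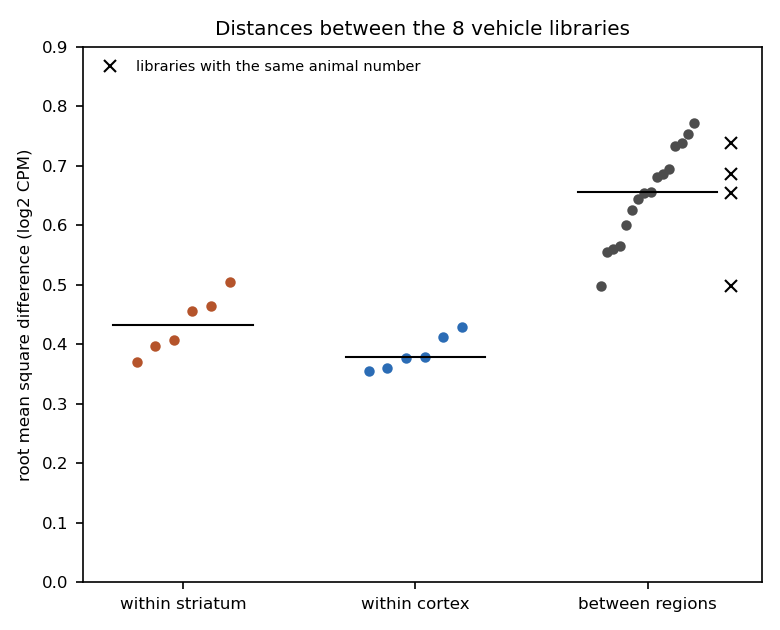
Root mean square difference in log2 CPM (vertical axis) for each pair of the 8 vehicle libraries, sorted within the 6 pairs of striatum, the 6 pairs of cortex and the 16 pairs between regions; lines mark medians and crosses the pairs with the same animal number. Between regions the median was 0.656, against 0.432 within striatum and 0.378 within cortex, and the lowest cross is the pair of animal 8 at 0.499.

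The labelled regions were checked against their defining genes, and markers of each region were present in the other. The projection neuron gene Ppp1r1b (Entrez 19049), which encodes the dopamine-regulated phosphatase inhibitor DARPP-32, stood at 1790, 943.0, 2468 and 1046 CPM in the striatum of animals 3, 4, 7 and 8. In their cortex libraries it stood at 410, 679, 777 and 1091 CPM. The cortex of animal 8 thus had more Ppp1r1b than the striatum of animals 4 and 8, and the groups overlapped.

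The vesicular glutamate transporter gene Slc17a7 (Entrez 72961) stood at 263, 45.2, 313 and 887 CPM in the striatum of animals 3, 4, 7 and 8. In the cortex the same animals had 1804, 1619, 1859 and 1500.4 CPM. No striatum library reached the lowest cortex library, but animal 8 was the highest of the striatum and the lowest of the cortex. Over the 19 genes of cortical excitatory neurons, the summed level was 2969, 1968, 3432 and 4879 CPM in the striatum and 9177, 8553, 8598 and 7149 CPM in the cortex, and animal 8 was the highest striatum library for 15 of the 19 genes. Over 26 genes shared by both classes of striatal projection neuron, it was 14330.4, 9490.05, 16657 and 8591 CPM in the striatum and 5094, 7564, 7398 and 9769.6 CPM in the cortex. The cortex of animal 8 was the highest cortex library for 23 of these 26 genes, and lay above the striatum of the same animal for 21.

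The dosed mice held the same markers in both regions. Ppp1r1b ranged from 886 to 2523 CPM (median 1476) in their 17 striatum libraries, and from 356 to 1072 CPM (median 801) in their 17 cortex libraries. Slc17a7 ranged from 40.9 to 1311 CPM (median 175) in dosed striatum and from 1095 to 1897 CPM (median 1532) in dosed cortex. Ppp1r1b thus overlapped between the regions in the dosed mice as in the vehicle mice. In bulk tissue, fewer cells of a type and less RNA per cell cannot be told apart.

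**Figure D2:**
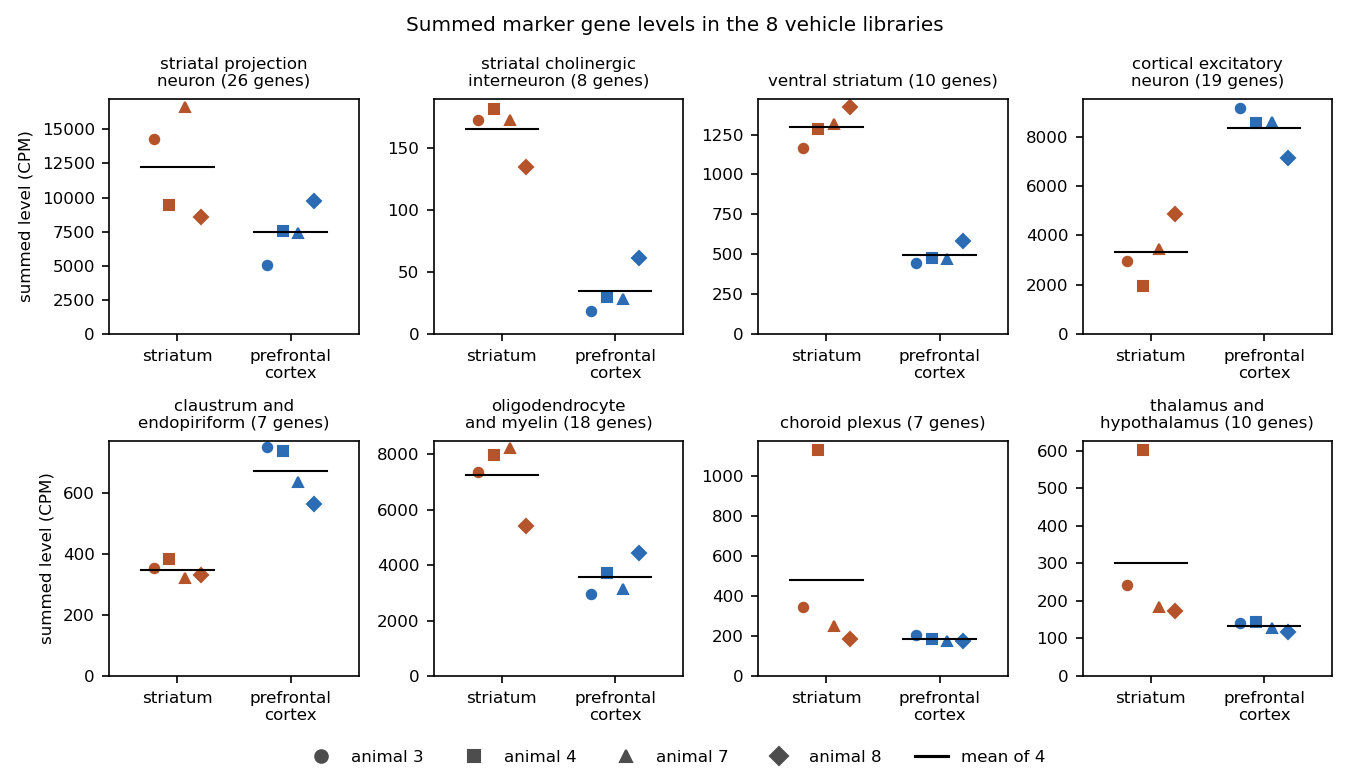
Summed level in CPM (vertical axis, from 0) of 8 gene lists in each vehicle library, with a symbol for each animal and a line for the mean of 4. Striatal projection neuron genes overlap between regions, cholinergic, ventral striatal, myelin, cortical excitatory and claustrum genes do not, and the striatum of animal 4 stands alone in choroid plexus and in thalamus and hypothalamus genes.

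Striatal projection neuron genes were higher in striatum on average but mostly not beyond the spread between libraries. Of the 26 genes shared by the direct and indirect pathways, 6 passed, all higher in striatum, against 11% of all genes in that direction. The median log2 fold change of the 26 was 0.68, against 0.02 over all tested genes. Gng7, the G protein subunit paired with the olfactory type alpha subunit of striatal neurons, had a log2 fold change of 1.12 ± 0.28 (SE, n = 4 against 4, adjusted p = 0.0208 by edgeR). Rarb, a retinoic acid receptor, had 1.02, Adcy5, the main striatal adenylyl cyclase, had 0.95, and Meis2, a homeobox gene of striatal neurons, had 0.69. Gnal, the olfactory type alpha subunit itself, had 0.47, with overlapping libraries.

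Genes that did not pass included Ppp1r1b at 1.08 ± 0.40 (adjusted p = 0.105 by edgeR), the phosphodiesterase gene Pde1b at 0.82, the sodium channel beta subunit gene Scn4b at 0.56 and the cannabinoid receptor gene Cnr1 at -0.32. Pde1b passed without either library of animal 8 (adjusted p 0.0287 and 0.0177 by edgeR) and by DESeq2 (adjusted p = 0.0399), and Cnr1 without the striatum of animal 3 (0.0461 by edgeR). With all 42 brain libraries in 1 fit, Ppp1r1b and Pde1b passed (adjusted p 0.00449 and 0.00523 by edgeR) and Gnal did not (0.104). With both libraries of animal 8 left out, 20 of the 26 passed, and with those of animals 4 and 8 left out, 24 did. Those libraries were chosen after their marker levels had been seen, so these counts are a description. Ppp1r1b then had a log2 fold change of 1.47 and 1.84. In the dosed mice 22 of the 26 genes were higher in striatum and passed, and none was lower. The calls of Gng7, Rarb, Adcy5 and Gnal were lost without 4 or 5 of the 8 single libraries, among them the striatum libraries of animals 3 and 7 and the cortex libraries of animals 4 and 7 for each gene (highest adjusted p 0.0601, 0.087, 0.0877 and 0.103 by edgeR). With the animal number as a replicate block 2 of the 26 passed, and the same 4 genes missed the threshold (adjusted p 0.0706, 0.0863, 0.0727 and 0.0863 by edgeR). With 1 library left out, the number passing as higher was 1 without the striatum of animal 3 or the cortex of animal 4 or 7, 2 without the striatum of animal 7, and 12 or 11 without the striatum or cortex of animal 8.

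Among genes of the direct pathway, 6 of 8 tested were higher in striatum, and 3 without the cortex library of animal 4 or 7. None passed as lower by edgeR, where 1 had an unadjusted p under 0.05, and 1 did by DESeq2 and 1 by edgeR without the cortex of animal 8. Drd1 (Entrez 13488), the D1 dopamine receptor gene, stood at 185, 124, 191 and 107 CPM in the striatum of animals 3, 4, 7 and 8, and at 55.2, 91.7, 73.3 and 114 CPM in their cortex. The libraries overlapped through animal 8 alone, and the log2 fold change was 0.86 ± 0.25 (adjusted p = 0.036 by edgeR). The call was lost without any single library of animals 3, 4 or 7 in either region, with adjusted p from 0.055 to 0.11, and when the animal number entered as a block (adjusted p = 0.155 by edgeR). Without both libraries of animal 8 the log2 fold change was 1.18.

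Isl1, a LIM homeobox gene of direct pathway and cholinergic neurons, was the clearest of these genes. It stood at 15.7, 15.6, 18.7 and 15.4 CPM in striatum and at 1.06, 2.15, 1.32 and 5.78 CPM in cortex, with no overlap and a log2 fold change of 2.70 ± 0.38, beyond 2-fold. Pdyn, the prodynorphin gene, stood at 144, 98.7, 176 and 159 CPM in striatum and at 36.4, 54.8, 44.7 and 97.6 CPM in cortex. All striatum libraries were higher, the lowest by a narrow margin, and the log2 fold change was 1.31 ± 0.32. Its call was lost without the striatum library of animal 7 or 8 or the cortex library of animal 4 or 7 (adjusted p 0.0518 to 0.0696 by edgeR). Slc35d3, which acts in D1 receptor trafficking, had 1.5, the transcription factor gene Ebf1 0.94 and the mitochondrial serine carrier gene Sfxn1 0.36. Without the cortex library of animal 4 or 7, Slc35d3 missed the threshold (adjusted p 0.0603 and 0.0575 by edgeR). Tac1, which encodes substance P, did not pass at 1.06 ± 0.41. It stood at 170, 101, 166 and 119 CPM in striatum and at 36.4, 61.5, 45.8 and 125 CPM in cortex, where animal 8 exceeded 2 striatum libraries. Eya1, a transcriptional coactivator gene, did not pass at -0.70. Without the cortex library of animal 8 both passed, at 1.54 and -0.89 (adjusted p 0.000961 and 0.00931 by edgeR), as they did with all 42 brain libraries in 1 fit (0.0141 and 0.0131); Eya1 also passed by DESeq2 (0.03).

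In the indirect pathway, 3 of 6 tested genes were higher in striatum, and 1 of 6, Sp9, when the animal number entered as a block. Under the block Penk and Gpr6 had adjusted p of 0.131 and 0.069 by edgeR. The count was also 1 without the library of animal 3 or 7 in striatum or of animal 4 or 7 in cortex, and 5 without the cortex of animal 8. Penk, the proenkephalin gene, stood at 1104, 637, 1177 and 649 CPM in striatum and at 213, 377, 317 and 601 CPM in cortex. The striatum of animals 4 and 8 lay just above the cortex of animal 8, and the log2 fold change was 1.24 ± 0.35 (adjusted p = 0.0406 by edgeR). That call was lost without the striatum library of animal 3, 4 or 7 or the cortex library of animal 4 or 7, with adjusted p from 0.06 to 0.115. Gpr6, a constitutively active receptor gene of these neurons, had 1.39, and the zinc finger gene Sp9, needed for their development, had 1.03 ± 0.15. Gpr6 missed the threshold without the striatum library of animal 3 or 7 or the cortex library of animal 4 or 7 (adjusted p 0.0509 to 0.0699 by edgeR).

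Drd2, the D2 dopamine receptor gene, stood at 220, 134, 277 and 112 CPM in striatum and at 45.3, 84.1, 82.4 and 122 CPM in cortex. The striatum of animal 8 lay below its cortex, and Drd2 did not pass at 1.16 ± 0.39 (adjusted p = 0.0737 by edgeR). Adora2a, an adenosine receptor gene of these neurons, stood at 345, 187, 407 and 183 CPM in striatum and at 57.4, 120, 122 and 186 CPM in cortex. It likewise overlapped through animal 8 and did not pass at 1.21. Drd2 passed without the striatum or the cortex library of animal 8 (adjusted p 0.0429 and 0.0453 by edgeR), and Adora2a without the cortex one (0.0455). Both passed by DESeq2 (adjusted p 0.0216 and 0.023) and with all 42 brain libraries in 1 edgeR fit (0.00509 and 0.00204). Without both libraries of animal 8, the log2 fold changes were 1.57 for Drd2 and 1.64 for Adora2a, and 5 of the 6 genes passed. Grik3, a kainate receptor gene, had -0.12 and did not pass.

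Genes of cholinergic interneurons had larger differences than those of projection neurons. Of 8 tested genes, 7 were higher in striatum, 5 of them beyond 2-fold, with a median log2 fold change of 2.59. Chat, which makes acetylcholine, stood at 33.4, 31.4, 28.3 and 23.3 CPM in striatum and at 2.47, 5.8, 4.74 and 11.8 CPM in cortex. Every striatum library exceeded every cortex library, animal 8 being the lowest and the highest of its group, and the log2 fold change was 2.26 ± 0.36. The choline transporter gene Slc5a7 stood at 41.4, 50.5, 39.2 and 31.2 CPM in striatum and at 4.41, 9.13, 9.15 and 14.6 CPM in cortex, a log2 fold change of 2.14 ± 0.28. The vesicular acetylcholine transporter gene Slc18a3 had 2.36.

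Lhx8, a LIM homeobox gene that specifies forebrain cholinergic neurons, stood at 20.7, 19.8, 20 and 18.6 CPM in striatum and at 0.441, 0.752, 1.32 and 5.2 CPM in cortex. The 4 striatum libraries were nearly level, while the cortex of animal 8 was well above the other 3, and the log2 fold change was 3.42 ± 0.51. Nkx2-1, which patterns the medial ganglionic eminence, had 3.39 ± 0.24. Gbx2 had 3.25 ± 0.80, and its call was lost without the striatum library of animal 4 (adjusted p = 0.0515 by edgeR) or the cortex library of animal 7 (0.0667). Without the cortex library of animal 8 it had 5.57. Slc17a8, the vesicular glutamate transporter that these cells also carry, did not pass at 0.75, but did without the striatum or cortex of animal 8 (adjusted p 0.031 and 0.00944 by edgeR). Ngfr, the low affinity neurotrophin receptor gene found on basal forebrain cholinergic neurons and not in this list, had 3.48. Summed over the 8 genes, the level ran from 135 to 182 CPM in striatum and from 18.5 to 61.4 CPM in cortex, where animal 8 was the highest. Genes of the neighbouring septum and pallidum were also higher in striatum in 7 of 10 cases, all without overlap and 3 of them beyond 2-fold. The list also had 1 lower gene, 2 without the striatum of animal 4 and none without the striatum of animal 3, 7 or 8 or the cortex of animal 3 or 4. That list shares Nkx2-1 with the cholinergic one. Gbx1, a homeobox gene, had 3.56 ± 0.65, and 5.43 without the cortex of animal 8, and the zinc finger gene Zic4 had 2.58 ± 0.29. The part of these neighbouring structures in the cholinergic genes was not tested.

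GABA genes moved in the same direction. Of 7 genes of GABA synthesis and transport, 6 were higher in striatum. Slc32a1, the vesicular GABA transporter gene, stood at 522, 513, 606 and 498 CPM in striatum and at 139, 174, 205 and 297 CPM in cortex, without overlap, and the log2 fold change was 1.39 ± 0.19. The GABA-making enzymes Gad2 and Gad1 had 1.29 and 0.68, the GABA-degrading enzyme gene Abat 0.85, and the uptake transporter gene Slc6a11 1.40.

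**Figure D3:**
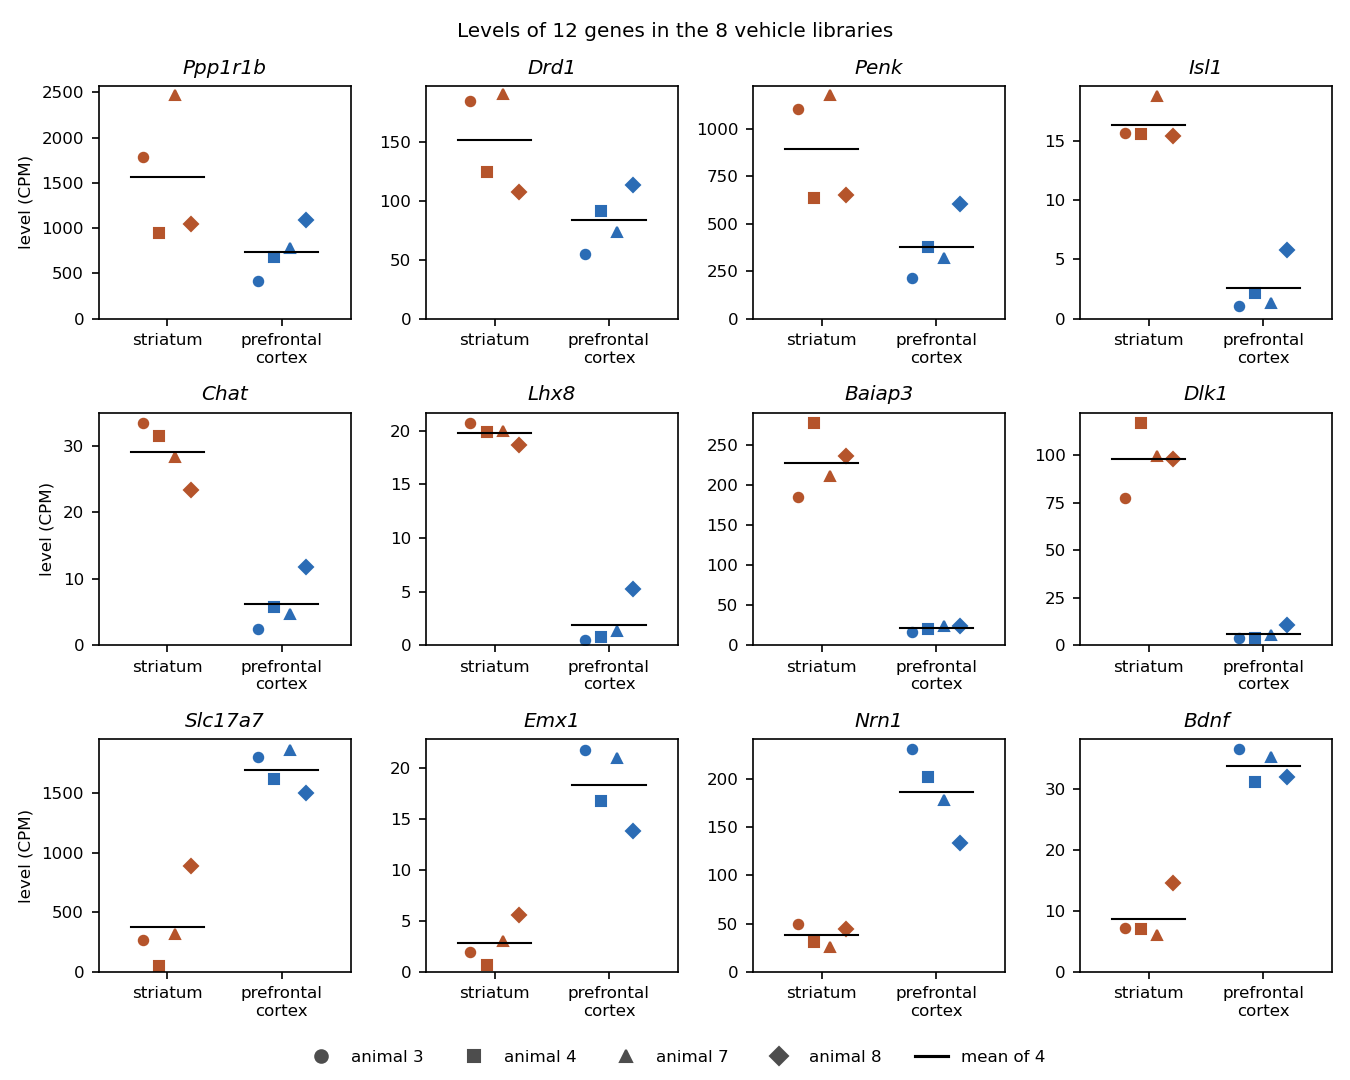
Level in CPM (vertical axis, from 0) of 12 genes in the 8 vehicle libraries, with a symbol for each animal and a line for the mean of 4. Ppp1r1b and Drd1 overlap between the regions, the other 10 genes do not, and animal 8 lies toward the opposite region in Slc17a7, Emx1, Chat and Lhx8.

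Genes known from the ventral striatum and nearby basal forebrain were higher in striatum as a group. All 10 ventral striatum genes passed, 4 of them beyond 2-fold, with a median log2 fold change of 1.34. The count was 9 without the striatum of animal 8 or the cortex of animal 3 or 8. Dlk1, an imprinted Notch ligand-like gene, stood at 77.6, 117, 99.3 and 97.9 CPM in striatum and at 3.71, 3.97, 5.29 and 10.4 CPM in cortex, a log2 fold change of 4.09 ± 0.28. The lowest striatum library lay far above the highest cortex library, which was again that of animal 8. The imprinted gene Peg10 had 2.58, the zinc finger gene Zcchc12 1.6 and the imprinted gene Nnat 1.32.

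Calcr, the calcitonin receptor gene, had 5.90 ± 0.62 and was highest in the striatum of animal 4, at 15.7 CPM against 5.77 to 6.73 CPM in the other 3. Wfs1, an endoplasmic reticulum gene of accumbens neurons, stood at 335, 280, 430 and 397 CPM in striatum and at 180, 178, 180 and 265 CPM in cortex. Its log2 fold change was 0.84 ± 0.16, with no overlap. Crym, which binds thyroid hormone, had 1.16 and overlapped between regions. Of 7 genes known from the dorsal striatum, none was higher by edgeR, by DESeq2 or at an unadjusted p under 0.05, and Mybpc1, a myosin-binding protein gene, was lower by 2.52 on the log2 scale (log2 fold change -2.52 ± 0.42). Without the striatum of animal 3, 2 of the 7 were lower, and with both libraries of animals 4 and 8 left out 2 were higher. In the dosed mice 1 was higher and 3 were lower. The 2 lists cover few genes, and the position of the punches within the striatum is not stated. Whether structures next to the striatum had a part in the ventral striatum genes was not tested.

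Among genes past 2-fold with a mean of at least 10 CPM in the region where they were higher, the 12 largest differences toward striatum were those of Arhgap36, Prlr, Dlk1, Irs4, Dgkk, Gabrq, Igsf1, Ngfr, Lhx8, Baiap3, Trh and Nkx2-1. Arhgap36 (Entrez 75404), which acts on protein kinase A, stood at 22.1, 23.9, 17.6 and 14.5 CPM in striatum and at 0.265, 0.967, 0.771 and 1.16 CPM in cortex. No library came near the opposite region, and the log2 fold change was 4.66 ± 0.29. Baiap3 (Entrez 545192), which acts in dense core vesicle recycling, stood at 185, 277, 211 and 236 CPM in striatum and at 16.8, 20.3, 24.4 and 24.4 CPM in cortex. Its log2 fold change of 3.41 ± 0.15 had the smallest error of the 12. All of the 12 but Baiap3 met the 10 CPM level through the striatum alone, so the ranking is a description.

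Irs4, an insulin receptor substrate gene, had 3.98, the diacylglycerol kinase gene Dgkk 3.79, the GABA A receptor theta subunit gene Gabrq 3.59 and the immunoglobulin superfamily gene Igsf1 3.58. Prlr, the prolactin receptor gene, had 4.45 ± 0.60. Of the 12 leading genes 11, all but Lhx8, were highest in the striatum of animal 4, the library that stood apart in choroid plexus and diencephalic genes. Without that library all 12 passed, with log2 fold changes from 3.06 to 4.53. Trh, which encodes thyrotropin-releasing hormone, stood at 14.4, 26.7, 13.3 and 11.6 CPM in striatum and at 0.971, 1.5, 1.43 and 2.43 CPM in cortex, a log2 fold change of 3.40 ± 0.33 with no overlap.

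The 12 largest toward cortex were Igfn1, Emx1, Arhgap15, Dkkl1, Dtl, Rxfp1, Nrn1, Tafa1, Frzb, Nwd2, Wnt10a and Exph5; all but Nrn1 and Nwd2 met the 10 CPM level through the cortex alone. Igfn1 (Entrez 226438), an immunoglobulin-like and fibronectin domain gene, stood at 7.11, 1.29, 3.27 and 3.84 CPM in striatum and at 37.4, 39.9, 36.4 and 20.1 CPM in cortex, a log2 fold change of -3.11 ± 0.40. Dkkl1, a gene related to the Dickkopf Wnt inhibitors, stood at 3.23, 0.646, 4.13 and 6.34 CPM in striatum and at 23.9, 22.7, 22.3 and 22.1 CPM in cortex. The cortex libraries were nearly level, and the log2 fold change was -2.67 ± 0.39. Rxfp1, the relaxin receptor gene, stood at 2.49, 3.32, 1.92 and 4.42 CPM in striatum and at 17, 17.6, 15.1 and 13.6 CPM in cortex, a log2 fold change of -2.38 ± 0.22. The Wnt pathway genes Frzb and Wnt10a had -2.20 and -2.05. Emx1 and Nrn1 are given with the cortical excitatory genes, and the remaining 5 lay between -2.05 for Exph5 and -2.69 for Arhgap15.

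Promoter windows of 4 of these differing genes are shown because they hold a searched motif near the start of a gene that passed beyond 2-fold. They are RefSeq sequences of build GRCm38.p6, from 250 bases before to 50 bases after the annotated start, written 5′ to 3′ on the gene's strand, with matches on either strand in capitals. The capitals mark CAGATG, an E-box of the kind bound by NeuroD factors, or TATAAA, the core promoter element that places the start of transcription in some genes. Agt and Trh were higher in striatum, and Dkkl1 and Nwd2, a gene of the NACHT and WD repeat family, lower. The windows lie at chr8:124569657-124569956 (Agt, minus strand), chr6:92244601-92244900 (Trh, minus strand), chr7:45211834-45212133 (Dkkl1, minus strand) and chr5:63648853-63649152 (Nwd2, plus strand).
Agt: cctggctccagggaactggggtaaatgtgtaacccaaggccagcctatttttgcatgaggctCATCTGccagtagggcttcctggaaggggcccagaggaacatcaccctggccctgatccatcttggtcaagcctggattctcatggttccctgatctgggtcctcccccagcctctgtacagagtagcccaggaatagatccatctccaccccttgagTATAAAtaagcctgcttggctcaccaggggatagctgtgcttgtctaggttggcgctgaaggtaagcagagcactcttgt
Trh: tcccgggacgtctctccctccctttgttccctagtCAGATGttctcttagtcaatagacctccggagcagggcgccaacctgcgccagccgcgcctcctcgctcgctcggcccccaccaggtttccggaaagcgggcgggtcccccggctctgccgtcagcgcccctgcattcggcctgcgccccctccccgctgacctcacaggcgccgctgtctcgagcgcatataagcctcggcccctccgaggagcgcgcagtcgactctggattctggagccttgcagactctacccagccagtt
Dkkl1: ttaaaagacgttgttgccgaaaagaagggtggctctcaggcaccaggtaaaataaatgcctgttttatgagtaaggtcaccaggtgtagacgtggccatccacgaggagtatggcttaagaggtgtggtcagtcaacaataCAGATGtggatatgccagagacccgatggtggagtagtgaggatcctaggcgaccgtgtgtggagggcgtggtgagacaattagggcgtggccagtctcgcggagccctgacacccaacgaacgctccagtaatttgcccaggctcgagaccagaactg
Nwd2: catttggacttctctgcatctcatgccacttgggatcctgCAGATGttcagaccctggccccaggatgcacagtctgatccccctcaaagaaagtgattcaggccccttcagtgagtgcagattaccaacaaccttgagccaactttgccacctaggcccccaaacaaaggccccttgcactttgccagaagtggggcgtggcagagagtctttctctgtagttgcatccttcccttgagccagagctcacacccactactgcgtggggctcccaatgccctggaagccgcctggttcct
In Agt the TATAAA match began 30 bases before the annotated start and the E-box match 188 bases before it. The CAGATG matches of Trh, Dkkl1 and Nwd2 began 215, 109 and 210 bases before the start.

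Windows were found for 11497 of the 14514 tested genes, 14709 windows in all. CAGATG was in 12.01% of all windows, in 22.68% of the 97 windows of genes beyond 2-fold higher in striatum, and in 30.77% of the 39 windows of genes beyond 2-fold lower. TATAAA was in 7.25%, 18.56% and 20.51% of the same sets. TAATTA, a core bound by homeodomain proteins, was in 2.68%, 7.22% and none, and TGACGTCA, the cAMP response element, in 2.93%, none and 2.56%. The motifs were searched on both strands; the 4 motifs do not contain each other. The median GC content was 60.7% over all windows, 55.3% in the first set and 53% in the second. CAGATG and TATAAA were thus found more often in these small sets than over all windows, and the sets were also lower in GC. In the larger sets of all passing genes, CAGATG was in 12.93% of the 1655 windows of genes higher in striatum. It was in 12.18% of the 1700 windows of genes lower, and TATAAA was in 7.79% and 8.82%. The core bound by homeodomain proteins was in 2.72% and 2.71% of these windows, and the cAMP response element in 1.51% and 2.71%. These shares lay near those of all windows, with 1 exception. The cAMP response element was less frequent in genes higher in striatum, at 1.51% against 2.93% of all windows. Windows of a gene can overlap, no test was made, and a match is a description of letters, not a site.

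Cortical excitatory neuron genes were lower in striatum where they passed. Of 19 tested genes, 12 passed, all lower in striatum, and 7 did not; in 18 of the 19 every cortex library exceeded every striatum library. The median log2 fold change was -1.79. Emx1, the dorsal telencephalon homeobox gene, stood at 1.94, 0.646, 3.08 and 5.57 CPM in striatum and at 21.8, 16.8, 21 and 13.9 CPM in cortex. Here too animal 8 was the highest striatum and the lowest cortex library, and the log2 fold change was -2.72 ± 0.42. Nrn1 (Entrez 68404), which encodes the activity-regulated surface protein neuritin, stood at 49.5, 31.2, 25.7 and 44.5 CPM in striatum and at 231, 202, 178 and 134 CPM in cortex. No overlap was seen, and the log2 fold change was -2.30 ± 0.23.

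Neurod1, a proneural factor gene, stood at 1.01, 2.03, 0.577 and 1.83 CPM in striatum and at 12.3, 9.24, 11.2 and 5.9 CPM in cortex, a log2 fold change of -2.82 ± 0.33. Slc30a3, the synaptic vesicle zinc transporter gene, stood at 30.4, 6.55, 18.6 and 36.4 CPM in striatum and at 165, 147, 179 and 125 CPM in cortex, a log2 fold change of -2.74 ± 0.46. Sv2b, a synaptic vesicle protein gene, stood at 194, 103, 157 and 328 CPM in striatum and at 752, 745, 673 and 537 CPM in cortex, and had -1.79 ± 0.33. In all 3 genes the cortex library of animal 8 was the lowest of its region. Tbr1, a factor of deep layer neurons, had -2.04, and its call was lost without the striatum library of animal 3 or 7 or the cortex library of animal 3, 4 or 7 (adjusted p 0.0511 to 0.0787 by edgeR).

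Slc17a7 did not pass, at -2.17 ± 0.80 (adjusted p = 0.11 by edgeR), but did without the striatum of animal 4, at -1.81 (0.0479), by DESeq2 (0.00955) and with all 42 brain libraries in 1 edgeR fit (0.00747). Neurod2 and Neurod6, transcription factor genes of pyramidal neurons, had -2.16 and -2.41 and did not pass either, but both did in the fit of 42 libraries (adjusted p 0.00721 and 0.00322 by edgeR), and Neurod2 did by DESeq2 (0.0353). For Neurod6 the striatum stood at 4.06, 0.646, 5.87 and 30.5 CPM and the cortex at 66.5, 58.5, 44 and 47.7 CPM. Animal 8 of the striatum was several times higher than the other 3. Without that single library the 3 genes passed, with log2 fold changes of -3.05, -3.22 and -3.96, and 17 of the 19 genes were lower. In the dosed mice all 19 were lower in striatum.

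Layer markers passed in both directions. Of 12 upper layer genes 4 were higher and 6 lower in striatum, of 13 layer 5 genes 3 were higher and 4 lower, and of 14 layer 6 and 6b genes 3 were higher and 4 lower, against 11% and 11.2% of all genes. Without the striatum or cortex of animal 3, 2 layer 5 genes were lower, and without the striatum of animal 7, 1 layer 6 or 6b gene was higher. Cux2, an upper layer homeobox gene, stood at 42.6, 48.6, 55.1 and 57.1 CPM in striatum and at 127, 91.3, 100 and 81.4 CPM in cortex, with no overlap and a log2 fold change of -0.98 ± 0.14. Rorb, a layer 4 gene, had -0.94, Stard8 -1.67 and the deep layer gene Rprm -0.99. Members higher in striatum are known from striatal neurons too, among them Wfs1, Crym and the forkhead gene Foxp2, which had 0.83. Fezf2, which specifies layer 5 neurons, stood at 6, 3.51, 7.79 and 33.8 CPM in striatum and at 28.9, 31.7, 22.9 and 22.3 CPM in cortex. Animal 8 of the striatum was above every cortex library, and Fezf2 did not pass at -1.06. Without that library it had -2.21 and passed. Without it, 8 of the 14 layer 6 and 6b genes were lower in place of 4.

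Genes of the claustrum and endopiriform nucleus, which adjoin the lateral striatum and the deep cortex, were lower in striatum in 5 of 7 cases. Nr4a2, a nuclear receptor gene, had -2.89 ± 0.50, at 89.3 to 134 CPM in cortex and 5.08 to 27.1 CPM in striatum, and the netrin-G gene Ntng2 had -1.91. The summed level of the 7 genes was 323 to 384 CPM in striatum and 562 to 749 CPM in cortex, with no overlap. The part of these neighbouring structures in the result was not tested.

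Markers of GABAergic interneurons differed in both directions. Of 18 genes, 4 were higher and 7 lower in striatum, and 4 were lower without the striatum of animal 3 or 7 or by library totals alone, and 3 without the cortex of animal 3. Vip, marker of a cortical class, had -2.56 ± 0.40, and Cort, a somatostatin-like peptide gene, stood at 0.738, 0.185, 0.769 and 3.36 CPM in striatum and at 5.38, 6.66, 6.5 and 6.13 CPM in cortex. Every cortex library had more Cort than any striatum library, and the log2 fold change was -2.28 ± 0.52, or -3.44 without the striatum of animal 8. Cck had -2.19 but lost the call without the striatum library of animal 7 (adjusted p = 0.0672 by edgeR) or the cortex library of animal 3 (0.0553). Lhx6, a factor of interneurons from the medial ganglionic eminence, was higher in striatum at 1.08 ± 0.10, and Nos1, marker of a class with nitric oxide synthase, at 0.59. The other higher members, Calb2 and Th, are given below with the thalamus and hypothalamus genes and with the dopamine genes. Pvalb, the parvalbumin gene of another class from the same eminence, was lower at -0.71 ± 0.20 with overlapping libraries, and lost the call without the library of animal 3 or 7 in either region (adjusted p 0.0562 to 0.0731 by edgeR). Sst, the somatostatin gene, did not pass at -0.05, with 165 to 284 CPM in striatum and 204 to 265 CPM in cortex.

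Forebrain patterning factors passed more often as higher than as lower in striatum. Of 42 tested, 22 were higher and 7 lower in striatum, against 11% and 11.2% of all genes. Without the striatum library of animal 8 the lower count was 12. Six3, a homeobox gene of striatal progenitors, stood at 64.1, 65.4, 88 and 55.7 CPM in striatum and at 7.77, 17.9, 14 and 30.8 CPM in cortex, a log2 fold change of 1.97 ± 0.37 with no overlap. Zic1, a zinc finger gene of the septum and ventral forebrain, stood at 67.6, 181, 95.5 and 92.3 CPM in striatum and at 11.5, 12.8, 11.9 and 18.9 CPM in cortex. The striatum of animal 4 was the highest, and the log2 fold change was 2.99 ± 0.33. Sp8, which acts in interneuron development, had 2.20. On the cortical side, besides Emx1, Neurod1 and Tbr1, the deep layer gene Sox5 had -1.29 and the chromatin organiser gene Satb1 had -1.07.

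**Figure D4:**
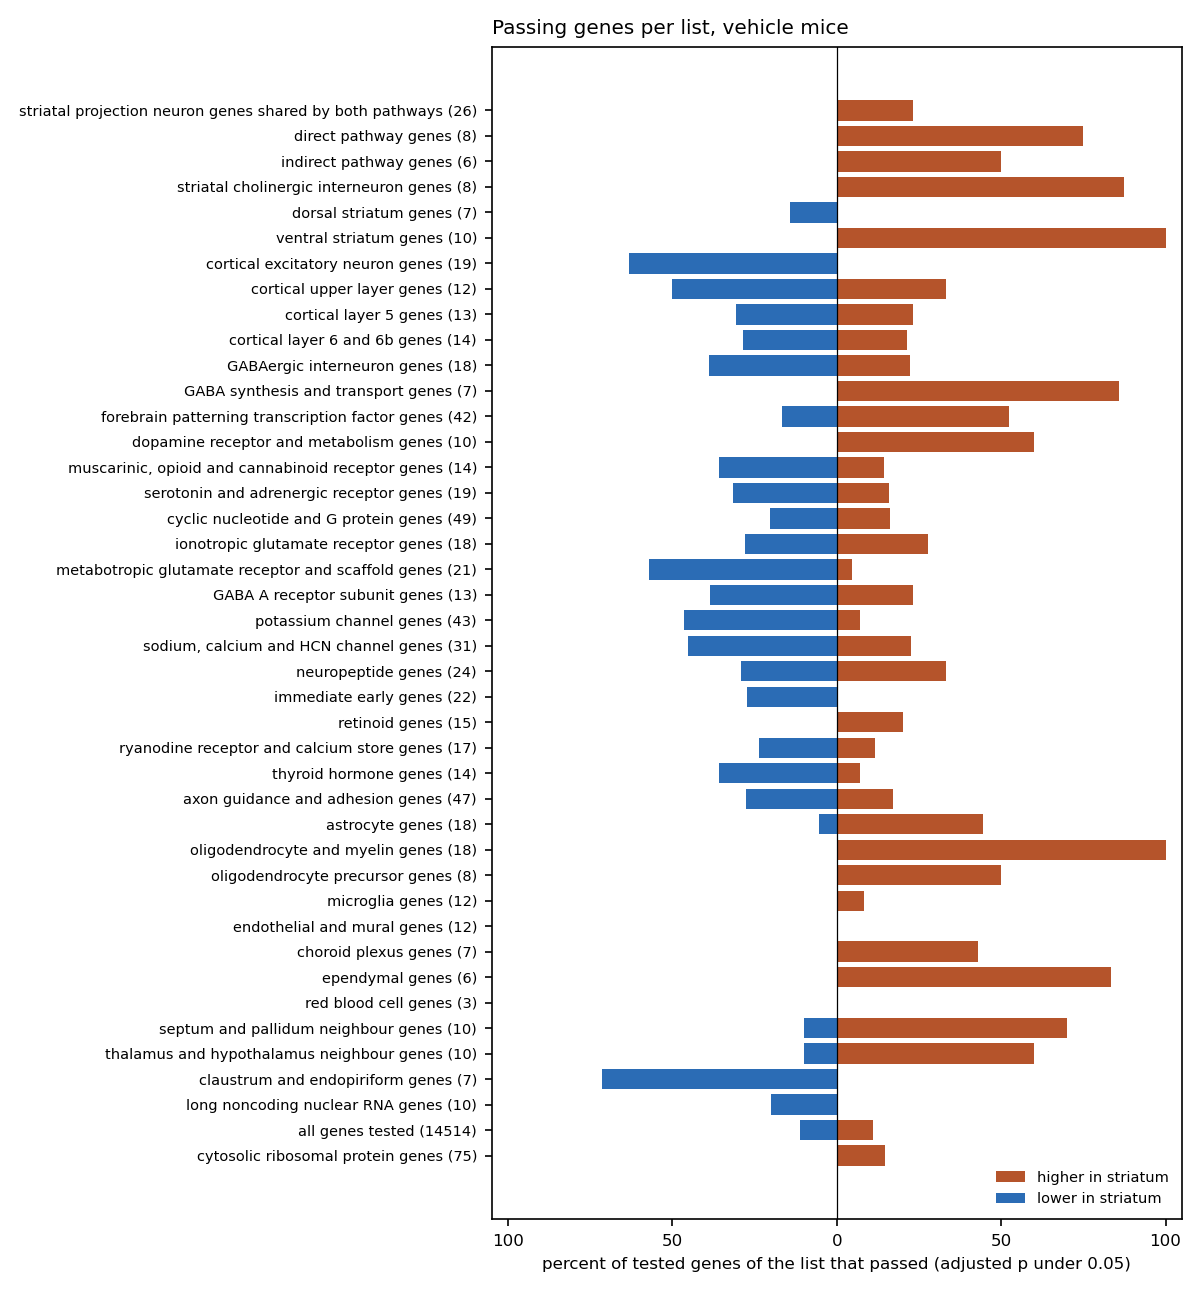
Percent of the tested genes of each list (number in brackets) that passed as higher (right) or lower (left) in striatum, with all genes tested near the foot. Oligodendrocyte and ventral striatum lists are wholly higher in striatum (18 of 18 and 10 of 10), and cortical excitatory genes are lower in 12 of 19.

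Dopamine genes were higher in striatum where they passed. Of 10 genes of dopamine receptors and metabolism, 6 passed, all higher. Besides Drd1, Drd3, the receptor gene of the ventral striatum, stood at 2.58, 3.32, 6.06 and 7.59 CPM in striatum and at 0.0883, 0, 0.331 and 1.39 CPM in cortex. It was low everywhere, did not overlap and had 3.49 ± 0.68. Drd5 had 1.61. The synthesis enzyme genes Th and Ddc had 1.61 ± 0.21 and 1.83 ± 0.21, and the vesicular monoamine transporter gene Slc18a2 had 1.07. The monoamine oxidase genes Maoa and Maob had 0.10 and 0.19 and did not pass. Drd2, given above, did not pass either.

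Receptor genes for other transmitters passed in both directions. Of 14 muscarinic, opioid, cannabinoid and somatostatin receptor genes, 2 were higher, near the 11% of all genes, and 5 lower, against 11.2%. The higher count was 1 without the striatum or cortex of animal 4 or 8 or the cortex of animal 7. The muscarinic receptor gene Chrm5 was higher at 2.90, and Chrm3 and Chrm1 lower at -1.37 and -0.67. The somatostatin receptor genes Sstr3 and Sstr2, also among the 5 lower, had -1.53 and -1.41. Of 19 serotonin and adrenergic receptor genes, 3 were higher, not far from that share, and 6 lower; 5 were higher without the striatum or the cortex of animal 8. The serotonin receptor gene Htr4 was higher at 1.70 ± 0.26, and Htr2a, at 48.7 to 61.2 CPM in cortex and 20.7 to 28 CPM in striatum, was lower at -1.15 ± 0.12. Htr1b did not pass at 0.98, but did without the striatum or cortex of animal 8 (adjusted p 0.0466 and 0.00286 by edgeR).

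Of 18 ionotropic glutamate receptor genes, 5 were higher and 5 lower in striatum, against 11% and 11.2% of all genes. The higher count was 2 without the striatum of animal 4 or the cortex of animal 7, and 3 without either library of animal 3. The lower count was 3 without the cortex of animal 3 or 4. The NMDA receptor subunit genes Grin2a and Grin2b were lower at -1.21 ± 0.11 and -0.79 ± 0.09, and Grin2d higher at 1.00 ± 0.13. Grin1, the subunit common to these receptors, had -0.12 and did not pass. The AMPA receptor subunit genes Gria1 and Gria3 had 0.36 and -0.86. Of 21 metabotropic receptor and scaffold genes, 12 were lower and 1 higher, or 2 higher without the striatum of animal 8. Grm4, the higher one, stood at 87.3, 80.8, 124 and 84.8 CPM in striatum and at 38.7, 46.8, 52.3 and 74.3 CPM in cortex, with no overlap and a log2 fold change of 0.83 ± 0.20. Among the lower ones, the presynaptic receptor gene Grm2 had -1.31, and the postsynaptic scaffold genes Dlgap1 and Homer1 had -1.24 and -0.70.

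Of 13 GABA A receptor subunit genes, 3 were higher and 5 lower in striatum, against 11% and 11.2% of all genes. The theta subunit gene Gabrq, given above as higher in striatum, was not in this list. The lower count was 3 without the striatum of animal 3 or 7 or the cortex of animal 4 and by library totals alone, and 2 without the cortex of animal 3. Gabre, the epsilon subunit gene, was higher at 4.69 ± 0.48, with 4.8 to 13.7 CPM in striatum and 0.11 to 0.859 CPM in cortex. Gabrg1 had 1.03 and Gabra3 -0.66.

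Ion channel genes were mostly lower in striatum where they passed. Of 43 potassium channel genes, 20 were lower and 3 higher, against 11.2% and 11% of all genes. The higher count ran from none, without the cortex of animal 7, through 1, without the cortex of animal 3 or 4 or the striatum of animal 4 or 7, to 5 without the striatum of animal 8. Kcnh7, of the Erg channel family, had -2.05 ± 0.20, with 96.5 to 184 CPM in cortex and 27.2 to 40.1 CPM in striatum. The genes of G protein-gated channels Kcnj6 and Kcnj3 had -1.63 and -1.56. Of 31 sodium, calcium and HCN channel genes, 14 were lower and 7 higher, or 4 higher without the cortex of animal 3 or 4. The calcium channel subunits Cacna2d1 and Cacna2d2 went opposite ways, at -1.22 ± 0.13 and 1.80 ± 0.16, and the sodium channel gene Scn8a had -0.76. Of 49 cyclic nucleotide and G protein genes, 8 were higher and 10 lower, against 11% and 11.2% of all genes, and 5 were higher under the block on animal number or without the striatum of animal 7. Without the striatum of animal 3 or the cortex of animal 4 or 7, 4 were. The calcium-stimulated cyclase gene Adcy1 was lower at -1.38.

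Neuropeptide genes, with Penk, Pdyn, Trh, Vip, Cck and Cort above counted among them, were about evenly divided, with 8 of 24 higher and 7 lower in striatum. The higher count was 5 without the cortex of animal 4 or 7, and the lower count 4 without the striatum of animal 7 or the cortex of animal 3. Nts, the neurotensin gene, had 2.05 ± 0.56, at 22.8 to 24.4 CPM in striatum and 2.03 to 14.7 CPM in cortex. Its cortex maximum was the library of animal 8, and the call was lost without any single library but the cortex of animal 8 (adjusted p 0.0603 to 0.105 by edgeR). Chgb, a secretory granule protein gene, had -1.04 ± 0.10. Of 47 axon guidance and adhesion genes, 8 were higher and 13 lower, against 11% and 11.2% of all genes. Efnb3, an ephrin gene, had 1.27 ± 0.12, the ephrin receptor gene Epha8 1.30 and the axon guidance receptor gene Robo3 -2.33.

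Myelin genes were uniformly higher in striatum. All 18 genes of oligodendrocytes and myelin were higher in striatum with no overlap between libraries and a median log2 fold change of 1.03. Mbp, the myelin basic protein gene, stood at 2453, 2350, 2920 and 1881 CPM in striatum and at 919.6, 1134, 1056 and 1424 CPM in cortex. Its log2 fold change was 1.08 ± 0.15. Gjb1, a gap junction gene of oligodendrocytes, stood at 20.3, 18.1, 23.9 and 13.1 CPM in striatum and at 6.8, 7.63, 5.95 and 11.3 CPM in cortex, a log2 fold change of 1.26 ± 0.22. In both genes animal 8 was the lowest of the striatum and the highest of the cortex. The cortex of animal 8 was the highest cortex library in all 18 genes. All 18 also passed as higher in the dosed mice and with animals 4 and 8 left out. Of 8 oligodendrocyte precursor genes, 4 passed as higher (2 without the striatum of animal 7), with Bcas1, of cells in transition to myelination, at 0.90, and Pdgfra, the precursor receptor gene, not passing at 0.19.

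Of 18 astrocyte genes, 8 were higher and 1 lower in striatum, with differences of very unequal size, and 9 did not pass. Agt, the angiotensinogen gene whose promoter is shown above, stood at 56.6, 104, 47.9 and 46.7 CPM in striatum and at 8.47, 7.95, 8.48 and 8.79 CPM in cortex. The cortex libraries were level, the striatum of animal 4 was the highest, and the log2 fold change was 2.92 ± 0.26. The GABA transporter gene Slc6a11, in this list too, had 1.40, and the filament gene Gfap 0.51. With all 42 brain libraries in 1 fit Gfap did not pass (adjusted p = 0.128 by edgeR). Slc1a2, the main glutamate uptake gene, was lower at -0.55 ± 0.09. Of 12 microglia genes 1, the complement gene C1qc at 0.39, passed as higher, about the share of all genes. None passed when a single library other than the striatum of animal 4 was left out, and 2 did with both libraries of animals 4 and 8 left out. Cx3cr1 and Csf1r did not pass at 0.04 each. Of 12 endothelial and mural genes none passed by edgeR or by DESeq2, 2 had an unadjusted p under 0.05, 1 passed without the striatum of animal 3 or 7, and the junction gene Cldn5 had 0.16.

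Among the vehicle libraries, ventricular and diencephalic markers were highest in the striatum of animal 4. Ttr, the transthyretin gene of the choroid plexus, stood at 89.9, 582, 22.8 and 3.46 CPM in striatum and at 2.29, 5.37, 4.08 and 1.62 CPM in cortex. The striatum of animal 8 lay below the cortex of animals 4 and 7, and Ttr did not pass at 5.71 ± 1.78, but did without the striatum of animal 8 (adjusted p = 0.0323 by edgeR) or under the block on animal number (0.047). Summed over 7 choroid plexus genes, the level was 347, 1129, 252 and 187 CPM in striatum and 174 to 204 CPM in cortex. The chloride channel gene Clic6 passed at 2.34, as did Foxj1, of ciliated ependymal cells, at 2.05.

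Oxt, the oxytocin gene of the hypothalamus, stood at 53, 136, 24.9 and 12.3 CPM in striatum and at 1.41, 0, 1.54 and 1.39 CPM in cortex. It passed at 5.68 ± 1.13, with the striatum of animal 4 the highest, and missed the threshold without the cortex library of animal 3 (adjusted p = 0.0513 by edgeR). Avp, the vasopressin gene, did not pass at 4.15 ± 1.31, but did without the striatum of animal 8 (adjusted p = 0.0408 by edgeR). Calb2, the calretinin gene, had 2.95 with 137 CPM in the striatum of animal 4 against 34.9 to 44.6 CPM in the other 3, and the thalamic gene Prkcd had 2.08. Tcf7l2, a thalamic factor, had 2.28 and missed the threshold without the cortex library of animal 3 (adjusted p = 0.0592 by edgeR). The striatum of animal 4 was the highest striatum library for all 10 tested thalamus and hypothalamus genes, with a summed level of 602 CPM there against 174 to 244 CPM in the other striatum libraries and 117 to 143 CPM in cortex. Rora was lower in striatum at -0.83. The 17 striatum libraries of the dosed mice held these transcripts too. Ttr ranged there from 1.61 to 4055 CPM (median 49.3), Oxt from 1.52 to 316 CPM (median 78), and Calb2 from 24.6 to 208 CPM (median 78.5). Levels as high as in animal 4 were thus also met in dosed mice. The part of these structures in the differences of Arhgap36, Irs4, Prlr and the other leading genes was not tested. With both libraries of animals 4 and 8 left out, 344 genes passed beyond 2-fold.

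Genes that have been studied for polychlorinated biphenyls were measured in the same libraries. Of 17 ryanodine receptor and calcium store genes, 2 were higher and 4 lower in striatum, against 11% and 11.2% of all genes, so that the count higher was near the share of all genes. It was 4 without the striatum of animal 8 and by library totals alone. Ryr2, a channel for calcium release, had -0.89 ± 0.11, at 173 to 236 CPM in cortex and 102 to 129 CPM in striatum. Ryr1 and Ryr3, chosen after their values were seen, had 0.60 and 0.52 and did not pass; Ryr1 did without the cortex of animal 8 (adjusted p = 0.0484 by edgeR) and Ryr3 without the striatum of animal 8 (0.0202). For Ryr1 the striatum stood at 43.7, 28.3, 58.7 and 32.9 CPM and the cortex at 17.8, 25.1, 28.5 and 37.1 CPM, with overlap through animals 4 and 8. Fkbp1b, which binds the ryanodine receptor, had -0.84. Of 14 thyroid hormone genes, 1 was higher, below the share of all genes, and 5 were lower in striatum, or 3 without the cortex of animal 4. Dio2, which activates thyroid hormone, had -0.75 ± 0.14, and the hormone-responsive genes Nrgn and Hr had -1.11 and -0.50. Thra, the main brain receptor gene, had -0.05 and did not pass.

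Of 22 immediate early genes, which follow neuronal activity, 6 passed, all lower in striatum. Under the block on animal number 7 were lower and 1 higher, and 1 was higher with both libraries of animals 4 and 8 left out. Bdnf, the neurotrophin gene, stood at 7.2, 7.02, 6.06 and 14.5 CPM in striatum and at 36.6, 31.1, 35.3 and 31.9 CPM in cortex. The regions did not overlap, and the log2 fold change was -1.96 ± 0.23, beyond 2-fold. Egr1 stood at 350, 282, 485 and 476 CPM in striatum and at 435, 440, 432 and 504 CPM in cortex. The cortex libraries were tightly grouped apart from animal 8, and Egr1 did not pass at -0.18. Arc had -0.65 and did not pass, but did without the striatum of animal 8 (adjusted p = 0.0353 by edgeR) or under the block on animal number (0.00711).

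The same region difference was measured in the dosed mice. In that set, with dose as a term, 7331 of 14504 genes passed (50.5%), 3755 (25.9%) of them higher in striatum and 3576 (24.7%) lower. Of the 3229 genes that passed in vehicle mice, 3206 were tested in dosed mice, and 3202 differed in the same direction. Of the 3206, 3085 (96.23%) also passed in that direction, and none passed in the opposite direction. All 125 tested genes beyond 2-fold in vehicle mice passed in the same direction. The median ratio of the dosed to the vehicle log2 fold change over the 3206 was 0.943. Of the 11169 tested genes that had not passed in vehicle mice, 3984 passed in the dosed mice in the same direction and 195 in the opposite one. With 17 libraries a region the dosed set finds smaller differences, so the counts of the sets are not a measure of dose. Emx1 had -2.77 in dosed mice, Dlk1 4.02, Baiap3 3.38, Chat 1.91, Mbp 1.06 and Ppp1r1b 0.87.

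**Figure D5:**
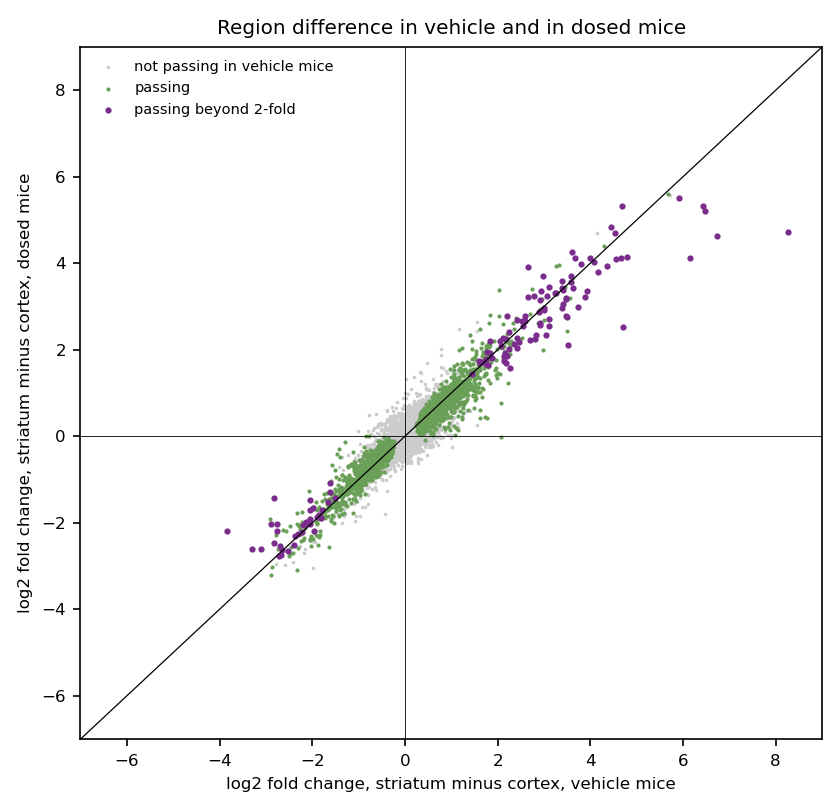
Log2 fold change of striatum over cortex in vehicle mice (horizontal axis) and in dosed mice (vertical axis) for each gene tested in both, with the line of equality. Genes passing beyond 2-fold in vehicle mice (purple) lie in the same direction in dosed mice in all 125 cases.

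Some genes varied widely within a region. In striatum the 6 genes with the largest spread in log2 CPM among those with a mean of at least 10 CPM were Slc17a7, Ttr, Avp, Neurod6, Neurod2 and Prss12. Prss12, which encodes the serine protease neurotrypsin, had 39.2 CPM in the striatum of animal 8 and 1.94 to 6.92 CPM in the other 3. Among the 6 in cortex were the hemoglobin genes Hba-a1 and Hbb-bt. Hba-a1 stood at 54, 102, 87.6 and 439 CPM in striatum and at 31.3, 92.1, 46.7 and 477 CPM in cortex. Animal 8 was far higher than the others in both regions, the regions overlapped, and Hba-a1 did not pass at 0.08 ± 1.12. In dosed mice it reached 198 CPM in striatum and 169 CPM in cortex.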

How the data were processed

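RNA was isolated from tissue punches with TRIzol and RNeasy columns, per the labels' protocols, which name poly(A) capture or ribosomal RNA removal without saying which was used. The submitters' processing notes name FastQC, HISAT2 and the mm10 genome. The counting tool, annotation and use of strand are not given in the sources used here, so overlapping or antisense genes cannot be told apart. The authors deposited whole-number read counts per Entrez gene, 1 table for each region; listed genes had at least 10 counts over the 21 libraries of their table. Symbols came from RefSeq (GRCm38.p6) for 99.97% of the 17378 shared identifiers.

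Columns were matched to samples by title. Vehicle libraries of a region differed by more than sampling noise (chi-square per degree of freedom 6.09 to 23.6), so none was treated as a repeat deposit of another. Nothing in the labels says that they came from separate animals beyond their numbers, so p-values measure the spread between these samples.

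The counts were filtered with filterByExpr, scaled by TMM and fitted with edgeR 4.0.16 in R 4.3.3 (robust quasi-likelihood, region as the only term; glmTreat at 2-fold; dose as a second term in dosed mice). The Benjamini-Hochberg adjustment ran over all tested genes. Standard errors are the absolute log2 fold change over the root of F. The procedure was tested on simulated data. The precision of low levels is limited by 8874514 to 11672016 counts a library. DESeq2 1.42.0 and other scalings, filters and designs were alternatives.

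Genes were named by rule: the 12 largest differences in each direction beyond 2-fold without overlap and with a mean of at least 10 CPM in the higher region, up to 6 passing members in each direction and 4 others of each list, all members of the pathway, cholinergic and dopamine lists, and the 6 most variable genes of each region. A few genes that this rule names are not reported here. The members and lists were chosen with earlier results of these data known. The liver libraries were not used here.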

Additional observations from a re-analysis of the deposited data

Results flagged for a closer look

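Values of a library that stood apart from the other 3 of its region were sought by Dixon's ratio in the genes given library by library and in the summed lists. Of 166 groups of 4 libraries, 15 were marked, where 8.3 would be expected at 1 in 20 if the groups were independent. They were not, because summed lists hold genes that were also checked singly. Ttr and Hba-a1 had moreover been named for their spread. The counts are thus a description and no test of chance.

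In the cortex of animal 8, Wfs1 stood at 264.7 CPM against 178 to 180 CPM in the other 3, Egr1 at 503.7 CPM against 432 to 440, and Hba-a1 at 477.2 CPM against 31.3 to 92.1. The striatum of animal 8 had 438.5 CPM of Hba-a1 against 54 to 102, 33.82 CPM of Fezf2 against 3.51 to 7.79, and 14.51 CPM of Bdnf against 6.06 to 7.2. Summed over 3 red blood cell genes, animal 8 had 525.5 CPM in striatum and 590.8 CPM in cortex. The other libraries had 65.9 to 127 CPM and 42.9 to 108 CPM.

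In the striatum of animal 4, Ttr stood at 581.8 CPM against 3.46 to 89.9 in the other 3. The summed choroid plexus genes there were at 1129 CPM against 187 to 347, and the thalamus and hypothalamus genes at 601.8 CPM against 174 to 244. In the striatum of animal 7, Isl1 stood at 18.75 CPM against 15.4 to 15.7, Grm4 at 124.3 CPM against 80.8 to 87.3, and the summed nuclear long noncoding RNA genes at 2556 CPM against 2199 to 2241. Oxt was listed at 0 in the cortex of animal 4, where the other 3 had 1.39 to 1.54 CPM. The part of dissection or blood in these values was not tested.

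Genes listed in only 1 region's table entered no comparison. The striatum table alone listed 496 genes, of which 7 had at least 40 counts over the 4 vehicle libraries; the cortex table alone listed 275, of which none had that many. Sim1, a factor gene of the hypothalamus, had 18, 63, 3 and 2 counts in the striatum of animals 3, 4, 7 and 8. Lhx1 had 10, 30, 16 and 20 counts, Hmx3 8, 24, 14 and 21, Hmx2 9, 12, 10 and 13, Onecut3 13, 22, 14 and 14, Spata18 5, 47, 18 and 12, and 4933403O08Rik 8, 17, 6 and 9. Animal 4 was the highest in 6 of the 7, all but Hmx2.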

How the results depend on the processing

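The count of passing genes stayed within 1.5 times of its value under each alternative tried, from 2294 to 3384 with a single library left out; the counts beyond 2-fold then ran from 76 to 267. Beyond 2-fold, 376 genes passed with both libraries of animal 8 left out and 344 with those of animals 4 and 8 left out, alternatives chosen after seeing the data. By library totals alone, 66.96% of passing genes in dosed mice were higher in striatum, against 51.22% with TMM. Among 144 passing genes named with values, none changed direction under any alternative, and 122 passed without any single library. The animal numbers pair the libraries only by number: deviations from the region means correlated at 0.042, 0.174, 0.141 and -0.098 for animals 3, 4, 7 and 8, not over 0.1 in every pair. The highest correlation of all was between different numbers, 0.222 for the striatum of animal 7 and the cortex of animal 8. With the number as a block, 3470 genes passed, 88 of them beyond 2-fold, and 7339 in dosed mice; 8 named genes no longer passed (Drd1, Penk, Gpr6, Gng7, Rarb, Adcy5, Gnal and Shank1), and Arc and Ttr did, at adjusted p of 0.00711 and 0.047 by edgeR. Projection neuron genes shared by both pathways under that block passed in 2 of 26 cases, against 6, and by library totals alone in 10. Depth limits genes near 1 CPM, about 10 counts a library, such as Drd3 in cortex. Of the named genes that did not pass, 12 passed by DESeq2 (Drd2, Adora2a, Pde1b, Eya1, Slc17a8, Avp, Slc17a7, Neurod2, Htr1b, Ryr3, Arc and Ttr), where Gbx2 lost its call. With all 42 brain libraries in 1 fit 12 passed too, among them Ppp1r1b, Drd2, Adora2a, Tac1, Pde1b, Eya1, Slc17a8, Slc17a7, Neurod2, Neurod6 and Htr1b, while Gnal, Pvalb, Klf9 and Gfap no longer did. With no filter on low counts Drd1, Penk, Adcy5, Syt6 and Nts missed the threshold (adjusted p 0.0537 to 0.064 by edgeR). By library totals alone Pde1b, Htr1b and Ryr3 passed and Pvalb did not.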
